A study of Drosophila melanogaster with 12 samples.

Results

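The steroid hormone ecdysone is made from dietary sterols by a chain of enzymes, and its active form binds a heterodimeric nuclear receptor that switches target genes on and off. In the adult *Drosophila* ovary the hormone is made locally, mainly by the follicle cells that enclose each germline cyst, and it is known for roles in stem cell maintenance, the survival or death of mid-stage egg chambers, border cell migration and eggshell patterning. The 10 genes described here cover the steps of this pathway. They are 5 genes of synthesis (*nvd*, *phm*, *dib*, *sad* and *shd*), both receptor subunits (*EcR* and *usp*) and 3 early response genes (*Eip74EF*, *Eip75B* and *br*). They were found in the table by gene symbol, from a list drawn up with earlier results of these data known, and all 10 were among the 14303 genes of the deposited table.

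RNA-seq was done on ovaries that were dissected from females aged 4 days, with 3 rRNA-depleted libraries for each of 2 genotypes. *D1* mutant females carried the allele D1 Kyoto over D1 Bsc666, a deletion on 3R that removes *D1*, and control females carried D1 Kyoto over the balancer TM6C. Females of both genotypes were also mutant for *chk2*, the checkpoint kinase gene listed as *lok*, so no library came from a wild-type ovary. D1 is a protein that binds satellite DNA, and the RNA-seq addressed how its loss affects transposon and gene expression in the ovary. Whole ovaries were used, so fewer cells of a type and less RNA per cell cannot be told apart.

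The value given for each gene is the authors' mean of normalized counts over the 6 RNA-seq libraries, the mutant and the control ones together. It carries no error, no depth of a single library and no difference between genotypes, so the levels below describe ovaries of this study as a whole, no test was made, and it cannot be said which genes that stand next to each other in order differ beyond the spread between libraries. The authors' own comparison of the genotypes was not used. Levels of the ecdysone genes are compared with each other per kb of exon, where the exons of all annotated transcripts of a gene were merged. Pooled means with no length are given for each gene and used for limits, counts and the ranges of marker lists, and they also grow with the length of a transcript. Over all genes the median was 216 mean normalized counts per kb. Here "all genes" means those with a line in the deposited table, where the lowest pooled mean was 0.618. Genes without a line enter no median or percentage. *D1* itself had a pooled mean of 6038 normalized counts and *lok* a pooled mean of 272, and since both genotypes enter these means they do not check the genotype labels.

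All 10 ecdysone genes had more than 100 mean normalized counts, a level that at least 8225 of the 14303 genes of the table also passed. The lowest of the 10 by mean, *phm* at 113, was above only 42.5% of all genes. Their levels per kb of exon were not alike. The receptor subunit gene *usp* stood far above the rest at 3352 mean normalized counts per kb, and the other 9 genes lay between 15.2 for *br* and 318 for *sad*. *usp*, *sad* and *nvd* were above the median gene per kb of merged exon, while 5 genes, with *EcR* and *Eip75B* added, were above it per kb of the longest transcript. The order from high to low was *usp*, *sad*, *nvd*, *EcR*, *Eip75B*, *dib*, *phm*, *shd*, *Eip74EF* and *br*.

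**Figure D1:**
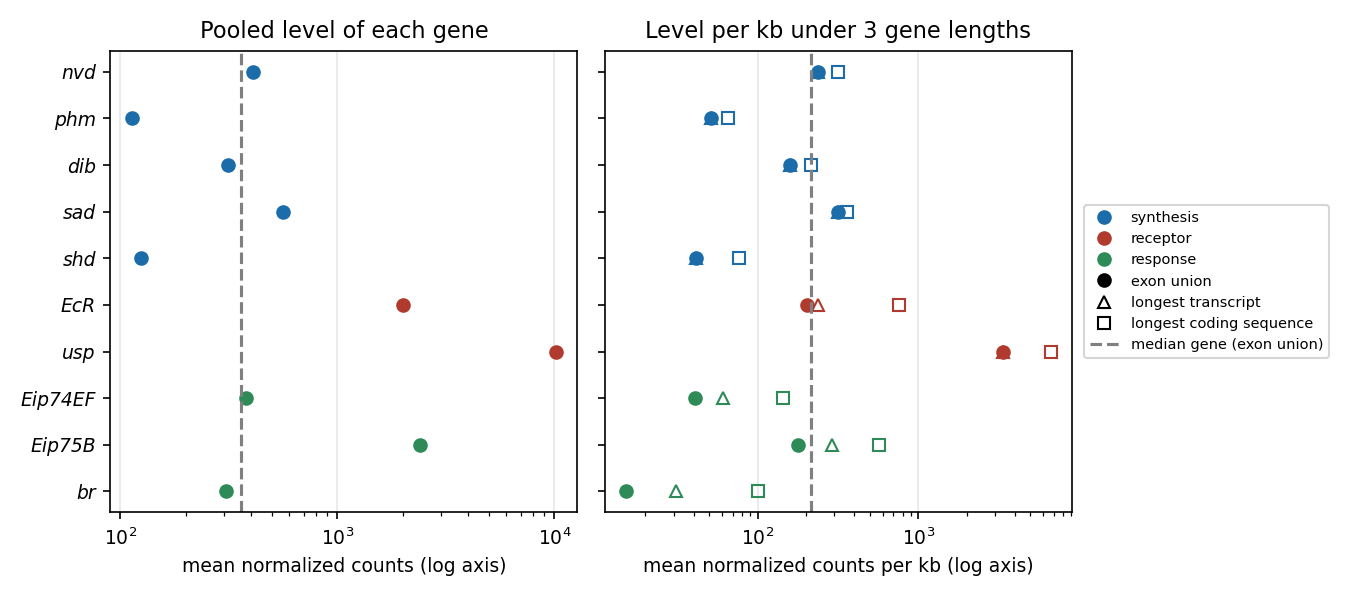
Pooled level of each of the 10 ecdysone genes, as mean normalized counts over the 6 libraries of both genotypes (left) and as mean normalized counts per kb under 3 definitions of gene length (right), both on log axes. The dashed lines mark the median gene, at 360 mean normalized counts and at 216 per kb of merged exon; per kb, *usp* is the highest gene under each length, and the symbols spread apart most for *br*, *Eip74EF*, *Eip75B* and *EcR*.

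Among the genes of synthesis, *sad* had the highest level and *shd* the lowest per kb of merged exon. The gene *nvd* encodes a Rieske-type oxygenase that acts on cholesterol at the first step of the chain. Its pooled mean was 411 normalized counts, or 238 per kb, higher than in 50.8% of genes. The gene *phm* encodes a cytochrome P450 that hydroxylates the sterol side chain. Its pooled mean was 113 normalized counts, which is 51.3 per kb and above 39.2% of genes. The gene *dib* encodes the next P450, which also hydroxylates the side chain, and it had 314 mean normalized counts, or 159 per kb.

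The gene *sad* encodes the P450 that completes ecdysone by hydroxylating the sterol ring. Its pooled mean was 564 normalized counts, which is 318 per kb and above 53.3% of genes. The gene *shd* encodes the P450 that turns ecdysone into the active hormone, a step that many tissues can carry out. Its pooled mean was 124 normalized counts, or 41.2 per kb, above 37.6% of genes. Per kb, *sad* thus stood 7.71-fold above *shd* and 6.20-fold above *phm*, whereas *sad* and *nvd* were 1.33-fold apart. In this order *sad*, *nvd* and *dib* lay between 159 and 318 mean normalized counts per kb, and *phm* and *shd* between 41.2 and 51.3.

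The receptor is formed by EcR, which binds the hormone, and Usp, the fly counterpart of the vertebrate retinoid X receptors. The pooled mean of *usp* was 10183 normalized counts and that of *EcR* was 2014. Per kb of exon these are 3352 for *usp* and 203 for *EcR*, a ratio of 16.5. The level of *usp* per kb was higher than that of 91.1% of genes, against 49.5% for *EcR*. The ratio depended on the length used, and with no length it was 5.06. *EcR* has 6 annotated transcripts and 9934 merged exon bases, and *usp* has 3038 merged exon bases. With the longest coding sequence as the length, *usp* had 6682 and *EcR* had 765 mean normalized counts per kb.

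The 3 response genes are known as direct early targets of the receptor. *Eip75B* encodes a nuclear receptor that binds heme, and it is known for its part in the decision between survival and death of egg chambers in mid-oogenesis. Its pooled mean was 2404 normalized counts, or 179 per kb, above 48.4% of genes. *Eip74EF* encodes an ETS-domain transcription factor and had 381 mean normalized counts, or 40.8 per kb. *br* encodes the BTB zinc finger proteins of the Broad-Complex, which pattern the dorsal appendages of the eggshell in follicle cells. It had 307 mean normalized counts, or 15.2 per kb, the lowest level per kb of the 10 genes and above 29.5% of all genes. Per kb, *Eip75B* was 4.38-fold above *Eip74EF* and 11.8-fold above *br*.

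**Figure D2:**
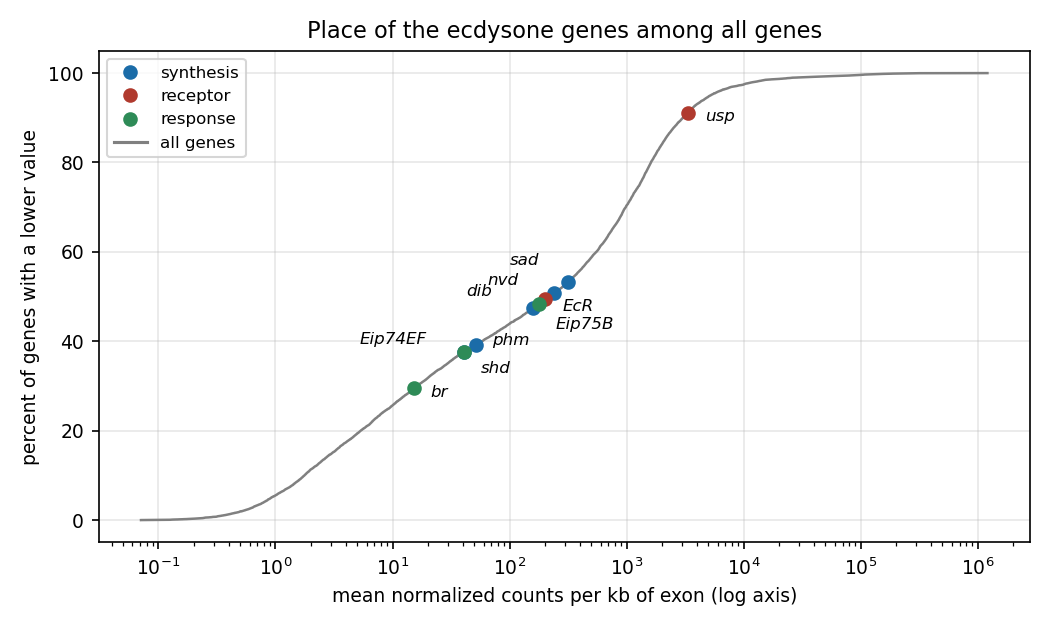
Place of the 10 ecdysone genes among all genes of the deposited table, with the pooled mean per kb of exon on a log axis against the percent of genes that had a lower value. *usp* sits at 91.1% and the other 9 genes between 29.5% (*br*) and 53.3% (*sad*); the points of *shd* and *Eip74EF* nearly coincide.

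The annotated length mattered for the long genes. *br* has 16 annotated transcripts and 20201 merged exon bases, while its longest transcript has 9822 and its longest coding sequence 3033. Its level was 31.2 per kb of the longest transcript and 101 per kb of the longest coding sequence. *Eip75B* has 7 transcripts and 13451 merged exon bases, and its level was 292 per kb of the longest transcript and 568 per kb of the longest coding sequence. For *Eip74EF*, with 5 transcripts, the same levels were 61.0 and 144. The synthesis genes are short and have 1 to 3 transcripts each, and for *nvd*, *dib* and *sad*, with 1 transcript, merged exons and longest transcript are the same. Of the 10 genes, *usp* and *dib* kept their places in the order, first and sixth, under all 3 lengths. With the longest coding sequence, *EcR* and *Eip75B* moved ahead of every synthesis gene and *phm* became the lowest, at 65.6 per kb.

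The genes differ in their place in the genome, given here in the BDGP6.54 annotation. On 3L lie *dib* (4062292 to 4064551), *shd* (14614458 to 14622205), *Eip74EF* (17558672 to 17619325, minus strand), *Eip75B* (17950953 to 18064696, minus strand) and *nvd* (24324866 to 24401655). On X lie *br* (1575132 to 1664869), *usp* (2038798 to 2042311, minus strand) and *phm* (18685766 to 18688433). *sad* lies on 3R (11877235 to 11879754) and *EcR* on 2R (6087873 to 6169087, minus strand). Those without a stated strand are on the plus strand. *nvd* is the synthesis gene nearest to the centromeric end of its assembled arm, at 3.71 Mb, and its locus spans 76.8 kb for 1722 bases of exon. Annotated mobile elements cover 9.15% of its locus, against 5.60% of the whole of 3L. The other 4 synthesis genes span 2.26 to 7.75 kb each and hold no annotated mobile element. Mobile elements also cover 9.41% of the *EcR* locus, 8.26% of the *br* locus and 7.91% of the *Eip75B* locus. None of the mobile elements or other features annotated within *nvd*, *EcR* and *Eip75B* shares an exon base with these genes.

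Exons of 4 of the 10 genes overlap exons of a neighbour, and whether reads were counted by strand is not given in the sources used here. The overlap was widest for *dib*, where 400 of 1975 exon bases, or 20.3%, lie on *wit*, a gene of the opposite strand with 432 mean normalized counts. For *usp*, 265 bases (8.72%) are shared with *Actn*, on the same strand with 7082 mean normalized counts, and part of these also with *CG4313*, on the opposite strand with 784. *br* shares 189 bases with *Mur2B* (1365 mean normalized counts) and *sad* shares 53 bases with *CG6962* (2545 mean normalized counts), both on the opposite strand. The part of these neighbours in the levels of *dib*, *usp*, *br* and *sad* was not tested.

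Other genes of the pathway were read from a list ordered by role. Of its 52 genes, 48 were in the deposited table and 40 reached a limit of 10 mean normalized counts, which 75.1% of all genes of the table reached. Over the 48 genes the median was 168 mean normalized counts per kb, against 216 for all genes of the table.

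Of 13 genes that supply the early steps or regulate them, 10 had at least 10 mean normalized counts, against 75.1% of all genes. The median of this list was 325 per kb. The highest per kb was *woc*, a zinc finger protein gene, at 1761. *Start1*, which encodes a START-domain lipid carrier, had 1502 per kb, and *Npc1a*, which encodes a protein of intracellular sterol transport, had 782. The paralogous P450 genes *spo* and *spok* act at the same early part of the chain, *spok* in the larval ring gland and *spo* in the embryo and the ovary. *spo* had 1101 mean normalized counts (442 per kb) and *spok* 5.80 (3.28 per kb). *sro*, which encodes a short-chain dehydrogenase of the same part, had 433 per kb. The 3 genes under 10 mean normalized counts were *spok*, *ouib* (2.28) and *kni* (6.09). The last is a known regulator of synthesis genes in the ring gland, and *ouib* is a zinc finger gene known to activate *spok* there.

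Hormone turnover and transport genes were all at 10 mean normalized counts or more, a limit that 75.1% of all genes reached. *Cyp18a1*, which encodes a P450 that inactivates ecdysteroids, had 2100 mean normalized counts, or 689 per kb, a higher level per kb than any of the 4 P450 genes of synthesis among the members. *Eo*, the ecdysone oxidase gene, had 11.6 mean normalized counts. Among carriers, *E23*, an ABC transporter gene known to be induced by ecdysone, was the highest at 986 per kb, and *Oatp74D*, the gene of the importer that brings the hormone into cells, had 65.9 per kb.

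The 5 genes of receptor partners all had at least 10 mean normalized counts, a limit that 75.1% of all genes reached. *bon*, which encodes a cofactor of the TIF family, was the highest of them at 1976 per kb. *Smr*, the gene of a corepressor that binds EcR, had 393 per kb and *tai*, that of a coactivator of EcR, had 134 per kb. Of 10 other nuclear receptor genes, 9 had at least 10 mean normalized counts, against the same 75.1% of all genes. The median of this list was 97.0 per kb, against 216 for all genes. *Hr3*, *Hr4*, *Hr38* and *Eip78C* lay between 3.38 and 10.3 per kb, and *Hr39*, *ERR* and *Hnf4* between 184 and 1047. *Hr78* was the highest at 2275 per kb. *ftz-f1*, which acts after the early genes in metamorphosis and has follicle cell roles in the ovary, had 791 per kb. *svp* was under the limit, at 4.46 mean normalized counts.

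Of 14 further response genes, 11 had at least 10 mean normalized counts, against 75.1% of all genes. The median of this list was 74.0 per kb, against 216 for all genes. The highest was *Eip55E*, which encodes an enzyme of cysteine synthesis, at 4414 per kb. *crol*, a zinc finger gene, had 913 per kb and *Eip93F*, a transcription factor gene of salivary gland death, had 38.2. Under the limit were *ImpE1* (1.11), *ImpE2* (1.35) and *ImpL1* (5.18), which are induced by ecdysone in imaginal discs. The like-named *ImpE3* (27.8) and *ImpL2* (366) were above it. None of the 5 salivary glue genes reached the limit. *Sgs3* had 0.760 mean normalized counts, and *Sgs4*, *Sgs5*, *Sgs7* and *Sgs8* have no line in the deposited table used here.

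**Figure D3:**
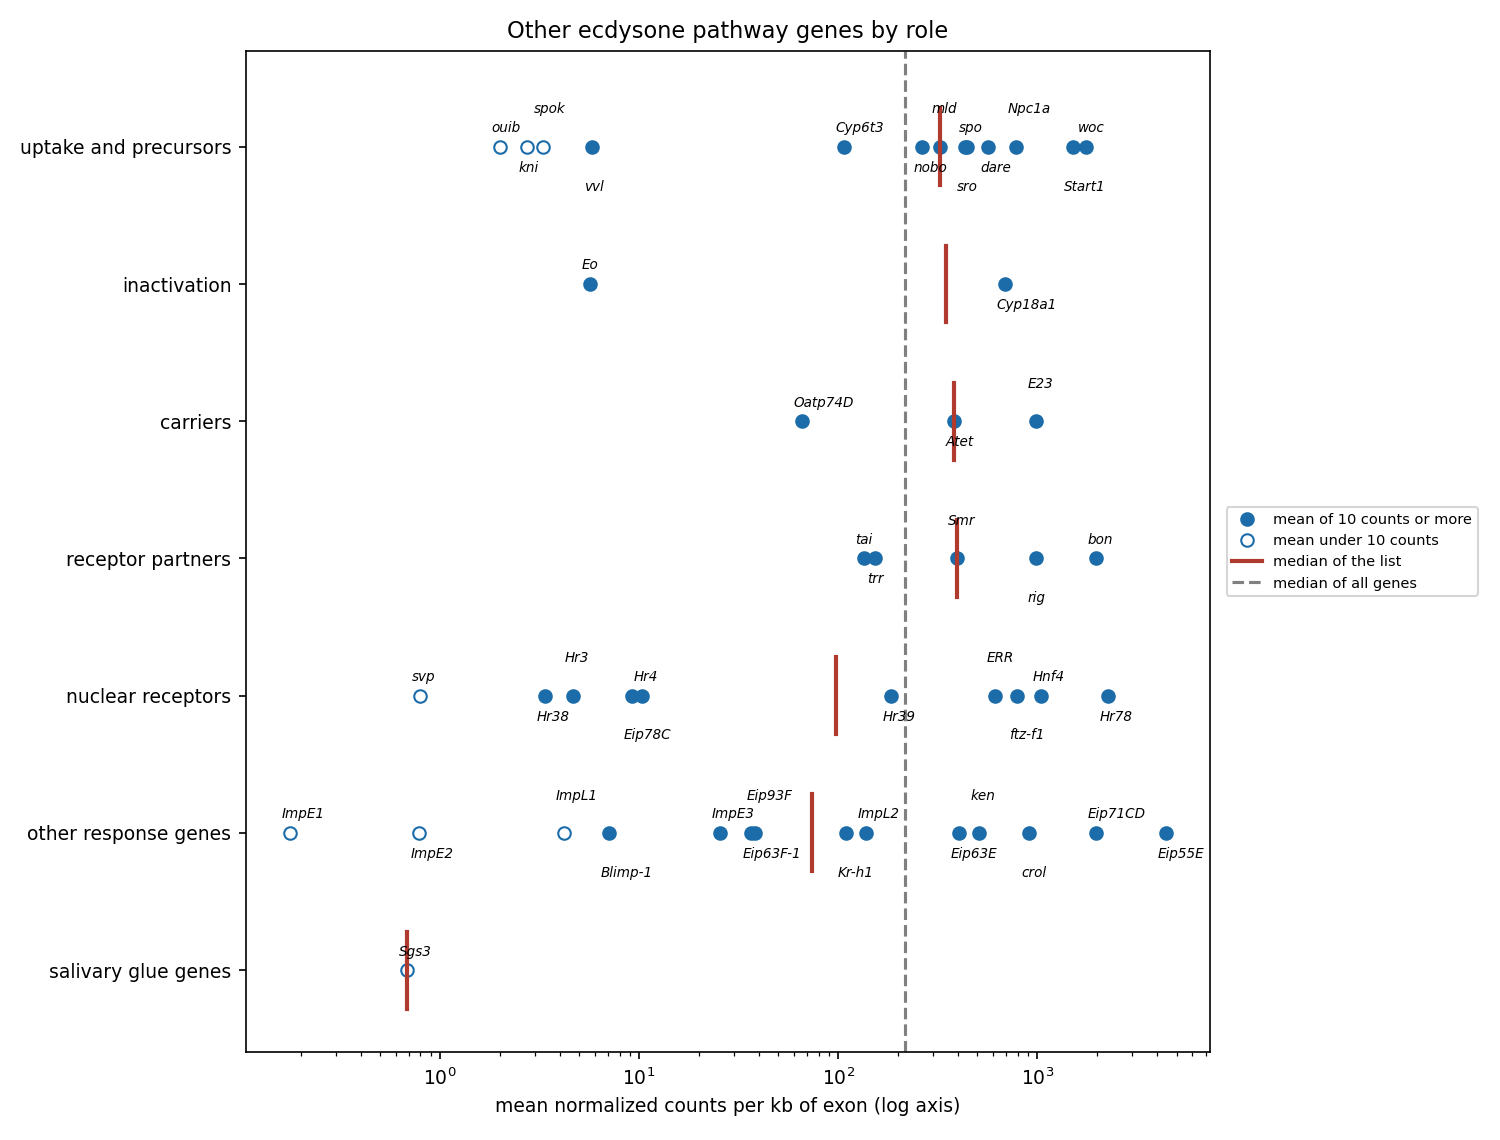
Pooled mean per kb of exon, on a log axis, of the 48 other pathway genes in the deposited table, in rows by role. Filled points had at least 10 mean normalized counts, red bars are list medians and the dashed line is the median of all genes at 216 per kb; the nuclear receptors reach from *svp* to *Hr78* (2275) and the response genes from *ImpE1* to *Eip55E* (4414).

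The labels give ovaries as the tissue and germline cell as the cell type, while the series text mentions testes, so tissue markers were read from the same table. All 8 germline markers and all 14 follicle cell markers had at least 10 mean normalized counts, against 75.1% of all genes. The germline list ranged from 835 to 36523 mean normalized counts, with *nos* the highest by mean, and the follicle cell list ranged from 646 to 217259, with the chorion gene *Cp15* the highest by mean. Of 16 testis markers, 13 were in the table, 5 had at least 10 mean normalized counts, and the median was 6.66. The highest by mean was *mia* at 591, while the sperm chromatin genes *ProtA* and *ProtB* had 1.06 and 0.994. The levels go with ovaries as the tissue and not with testes, and they show that the libraries held follicle cell transcripts beside those of the germline.

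The lists for other tissues had lower medians. Per kb of exon, the medians were 64580 mean normalized counts for follicle cells, 1803 for the germline and 439 for muscle, and 11.3 or less for fat body, nervous system, hemocytes and corpora allata. Of the 5 muscle markers, 4 had at least 10 mean normalized counts, against 75.1% of all genes. *Mhc* had 3974 mean normalized counts and *wupA* was the highest per kb at 577. The summed pooled mean of the muscle list was 6793 normalized counts. Both hemocyte markers had at least 10 mean normalized counts, against the same 75.1% of all genes, with *Hml* at 179. *Lsp1beta* was the highest fat body marker by mean, at 32.7 mean normalized counts, and *elav* the highest of the nervous system by mean, at 108. The fat body list held only *Fbp1*, *Lsp2*, *Lsp1alpha* and *Lsp1beta*, so its median does not cover other fat body transcripts. The yolk protein genes *Yp1*, *Yp2* and *Yp3* were placed in the follicle cell list, and which cells their transcripts came from was not tested. *jhamt*, the marker of the corpora allata, the gland of the juvenile hormone that in larvae is part of the same ring gland as the ecdysone-making cells, had 4.96 mean normalized counts. The part of these tissues in the levels of the ecdysone genes was not tested.

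**Figure D4:**
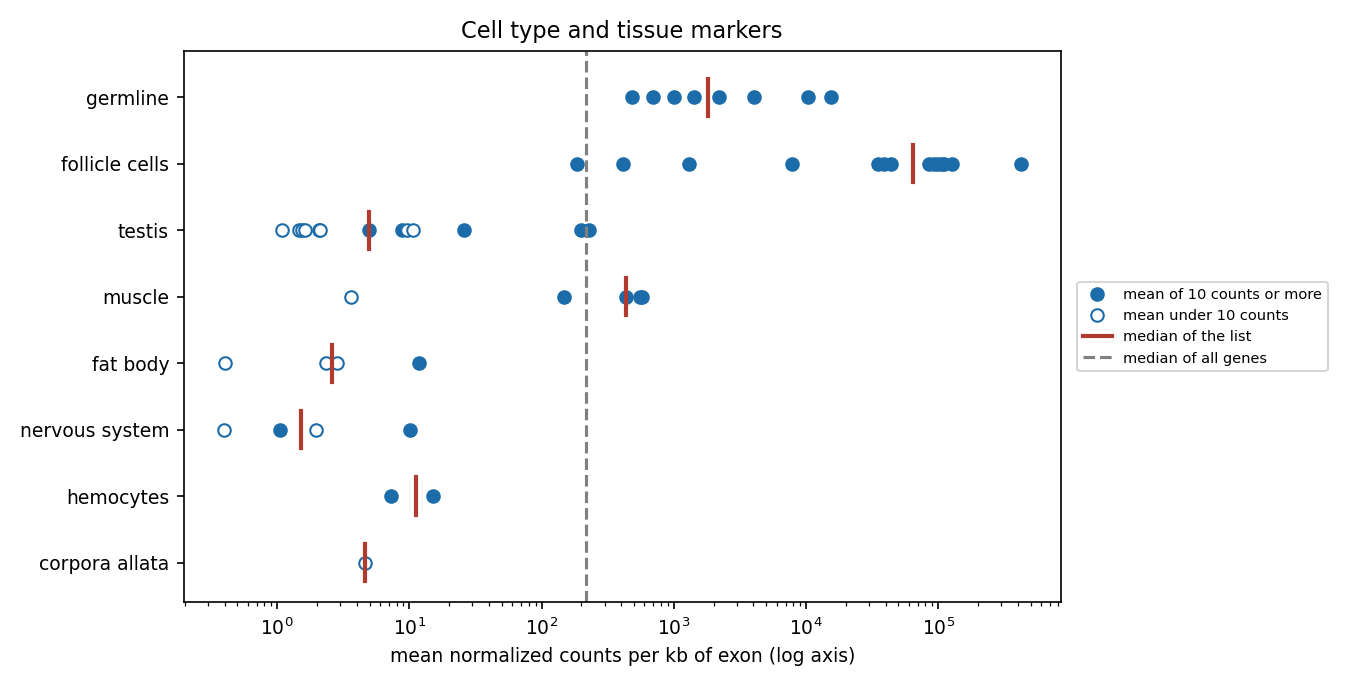
Pooled mean per kb of exon, on a log axis, of the tissue and cell type markers in the deposited table, in rows by list. Filled points had at least 10 mean normalized counts, red bars are list medians and the dashed line is the median of all genes at 216 per kb; the follicle cell list has the highest median, at 64580 per kb, followed by the germline list at 1803 and the muscle list at 439.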

How the data were processed

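The authors dissected about 5 pairs of ovaries per sample, trimmed reads (BBTools), mapped them with STAR (genome BDGP6.32), counted them on genes and transposons with TEtranscripts and compared the genotypes with DESeq2 (version 1.37.4 in the submitters' processing notes). The counting mode and the use of strand are not given in the sources used here. The signal used is the column of the authors' deposited table with the mean of counts divided by size factors over all 6 RNA-seq libraries. The table's other columns hold the authors' fold change, standard error, test statistic, p-values and calls, and none was used. A test on counts per library had been planned, but the table holds a pooled mean, so no test was run. The 6 small RNA libraries were not analysed here.

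Of 18049 lines, 9 without a feature name and 1 repeated identifier were left out, which leaves 18039 features, 14303 of them genes. Exon lengths came from the BDGP6.54 annotation, in which 14241 genes matched by FlyBase identifier, and cover by mobile elements from the RefSeq annotation of release 6, the assembly to which BDGP6.32 also belongs. A gene counted as detected at 10 mean normalized counts. Genes named are the 10 members, *D1*, *lok*, overlapping genes, the highest gene per kb of each role, genes under the limit and the highest gene by mean of each marker list; other genes named were chosen for their known role after values were seen. The members and lists were chosen with earlier results of these data known. Computation used Python 3.11.15 with pandas 2.3.3 and numpy 2.4.6.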

Additional observations from a re-analysis of the deposited data

How the results depend on the processing

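With the longest annotated transcript in place of merged exons, 5 of the 10 ecdysone genes were above the median gene per kb, against 3, with *EcR* and *Eip75B* added. With the longest coding sequence there were 3 again, now *usp*, *EcR* and *Eip75B*. That median was taken over only the 12160 genes with a coding sequence, so the genes compared changed as well as the length. With no length there were 6. Against only the genes with at least 10 mean normalized counts, 1 gene, *usp*, was above the median per kb. By mean normalized counts alone, which also grow with transcript length, 6 of the 10 were above the median gene, 3 above the median of genes with at least 10, and 10 above the median of genes and repeats together. The number of other pathway genes detected was 47 at a limit of 1 and 33 at a limit of 100, against 40. Most genes of the table also passed these limits, since *ProtB* at 0.994 stood above only 3.50% of all genes and *phm* at 113 above only 42.5%. At a limit of 100, 2 testis markers, 1 nervous system marker, 1 hemocyte marker and 0 fat body markers were detected, and the counts for germline, follicle cells, muscle and corpora allata were as at a limit of 10. No paired analysis was possible because the values used are means over all libraries. For the same reason another normalization and test, no filter on low counts, and leaving out each library, all intended for counts per library, were not run. The depth and the spread of single libraries are unknown here, so no error can be given for any level.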
